A study of Homo sapiens with 64 samples.

Results

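The AP-1 genes FOS, FOSB, FOSL1, FOSL2, JUN, JUNB and JUND, together with EGR1, ATF3 and IER3, were followed through RNA sequencing of colorectal cancer (CRC) spheroids that had been divided into dormant and cycling cells. The 10 genes were chosen by name, through the Ensembl identifiers of the count tables, and all 10 were found among the 54127 genes listed. AP-1 is a transcription factor made of pairs of basic leucine zipper proteins, usually one of the FOS family and one of the JUN family, that bind a short DNA element together. Many of its genes are immediate early genes, which are switched on within minutes of a growth factor or stress signal without new protein synthesis and are then switched off again. ATF3 is a stress-induced member of the same protein class, EGR1 is a zinc finger factor induced by growth factors, and IER3 encodes a small stress-induced protein that affects cell survival. In the intestinal epithelium, AP-1 is known as an end point of EGF and MAP kinase signaling.

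The study set out to characterize label-retaining cells (LRCs), which divide so seldom that they keep a dye that others dilute. The 6 established CRC cell lines belong to 3 expression subtypes: CCS1 (HT55, SW948), CCS2 (RKO, SW48) and CCS3 (DLD1, HCT15). Cells were stained with CFSE, a fluorescent dye that each division dilutes, grown as nonadherent spheroids in medium with EGF and bFGF, and on day 6 sorted into LRCs with high CFSE and cycling non-LRCs (named BULK in the labels). Each line gave 4 replicates of LRCs and 4 of non-LRCs, 48 sorted samples in all, and a further 16 DLD1 samples were controls to which the labels assign neither population. The controls had received CFSE or DMSO (no dye) and were taken on day 1 or on a second day, which is day 5 in the sample labels and day 6 in the series text, with 4 replicates for each dye and day. The second day is called day 5 hereafter. LRCs and non-LRCs had all been stained, grew in the same growth factors and went through the sorter, but by the definition of the sort they differed in the amount of dye they still held, so dormancy and dye content cannot be told apart in that comparison. Each line is a single established line in culture, without stroma or immune cells.

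Library depth, as reads assigned to genes, ran from 12237225 to 20913455 (median 15063858). Values below are CPM, read counts divided by library depth and scaled by edgeR's TMM factors. All members were measured at 1 count or more in every sample, and 9 of the 10 at 19 counts or more. Epithelial markers were high in 5 lines, with summed levels of 2699 to 15664 CPM over 6 genes in their sorted samples, but RKO had 219 to 333 CPM, with the adhesion gene CDH1 at no more than 1.39 CPM. The macrophage marker CD68 reached 1616 CPM in RKO, whereas the pan-leukocyte gene PTPRC was at 0 in RKO, at 7.5 to 22.3 CPM in SW48 and at no more than 0.0674 CPM elsewhere, and the T cell gene CD3E was at 0 in all 64 samples. In the sum over a whole sample, fewer cells that express a gene and less RNA of it per cell cannot be told apart. By mean correlation, 5 libraries were closer to the group they are compared with than to their own. Replicate 4 of the DMSO day 1 controls correlated at 0.972 to 0.979 with the rest of its group but at 0.983 to 0.993 with the DMSO day 5 controls, and replicate 4 of the SW948-LRCs at 0.984 to 0.989 with its own group but at 0.993 to 0.995 with SW948 non-LRCs. The gap was smaller for replicate 2 of the HT55 non-LRCs (0.9852 with its own group, 0.9896 with HT55-LRCs), replicate 4 of the HCT15-LRCs (0.9882 and 0.9899) and replicate 2 of the HCT15 non-LRCs (0.9890 and 0.9893). Results are given with and without the first pair, and in HT55 and HCT15 with each replicate number left out. Leaving out a library for its likeness to the opposite group tends by itself to widen the difference, so calls gained that way are not further support.

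Promoters are shown for the 5 members with an entry whose RNA fell most in the CFSE controls described below. They are the 150 bases before the annotated start in the RefSeq table of promoters (GRCh38.p14), which held 8 of the 10 members. Capitals mark TGACNTCA, an element bound by pairs of JUN and ATF proteins, TGACG, the core bound by CREB and ATF proteins, and the CArG box, which binds serum response factor. Both strands were searched, and a TGACNTCA with G in its open position also holds TGACG.
FOS, chr14:75278678-75278827, plus strand: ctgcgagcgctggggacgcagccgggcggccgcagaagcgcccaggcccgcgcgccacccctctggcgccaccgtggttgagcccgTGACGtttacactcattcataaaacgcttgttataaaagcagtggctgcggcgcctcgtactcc
FOSB, chr19:45467846-45467995, plus strand: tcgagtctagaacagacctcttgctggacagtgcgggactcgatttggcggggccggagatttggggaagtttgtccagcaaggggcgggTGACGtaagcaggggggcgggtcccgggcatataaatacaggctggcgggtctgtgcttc
JUN, chr1:58784048-58784197, minus strand: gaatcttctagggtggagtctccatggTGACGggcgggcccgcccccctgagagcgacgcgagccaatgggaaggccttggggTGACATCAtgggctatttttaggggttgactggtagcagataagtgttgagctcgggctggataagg
EGR1, chr5:138465329-138465478, plus strand: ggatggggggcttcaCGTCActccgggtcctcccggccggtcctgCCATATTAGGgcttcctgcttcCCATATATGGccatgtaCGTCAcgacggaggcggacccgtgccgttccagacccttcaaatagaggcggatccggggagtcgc
ATF3, chr1:212565257-212565406, plus strand: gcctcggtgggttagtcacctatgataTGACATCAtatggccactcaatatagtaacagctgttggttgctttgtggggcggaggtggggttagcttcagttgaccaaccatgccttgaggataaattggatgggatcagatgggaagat

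In these stretches TGACG lay at -64 to -60 from the start in FOS and at -60 to -56 in FOSB. JUN held TGACNTCA at -67 to -60 and TGACG at -123 to -119. ATF3, shown at the more upstream of its 2 annotated starts, held TGACNTCA at -123 to -116, and its other start held no such element. EGR1 held 2 CArG boxes, at -105 to -96 and -83 to -74, and TGACG at -135 to -131 and -66 to -62. Of the members not shown, TGACG lay in the same stretch of FOSL2 (-66 to -62), JUND (-86 to -82) and JUNB (-137 to -133). FOSL2 and JUND did not pass over time in the CFSE controls, so TGACG was not confined to members that fell. The share of all 35116 promoters with the same element in the same stretch was 15.4% for TGACG, 5.39% for TGACNTCA and 0.769% for the CArG box. The matches describe letters only, and binding was not measured.

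The levels of the 10 genes differed widely between the 6 lines. In non-LRCs, all 10 differed between lines in the edgeR test, where 98.3% of the 15779 genes tested did, so that a difference between lines was the rule and not a property of these genes. FOS (chr14:75745529-75748933 on GRCh37, as are all gene positions below) was lowest in SW948, at 47.9 ± 34.9 CPM (SD, n = 4), and highest in HT55, at 460 ± 90.2 CPM. The other 5 lines all exceeded SW948 on average, but neighbors in their order (RKO, DLD1, SW48, HCT15, HT55) overlapped in their replicates. EGR1 (chr5:137801168-137804992) was also lowest in SW948, at 28.6 ± 12.7 CPM against 482 CPM in HT55, the next line, and the 5 lines above SW948 again overlapped with their neighbors. FOSB (chr19:45971253-45978437), a close relative of FOS, averaged 2.61 ± 1.56 CPM in SW948 and 72.9 ± 41.6 CPM in HCT15. SW948 therefore had the lowest level of these 3 serum-responsive genes.

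FOSL1 (chr11:65659520-65668044) encodes FRA-1, a FOS family protein that lacks the transactivation domain of FOS. It averaged 318 ± 22.0 CPM in RKO and 171 ± 37.4 CPM in SW48, both lines of CCS2, with non-overlapping replicates, against 19.5 to 30.1 CPM in the other 4 lines. FOSL2 (chr2:28615315-28640184), which encodes the related FRA-2, ran the other way, with 14.9 ± 2.39 CPM in RKO, 62.5 ± 10.8 CPM in SW48 and 106 to 230 CPM elsewhere. The lines with the most FOSL1 thus had the least FOSL2, a description over 6 lines.

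JUN (chr1:59242517-59249720), the partner of FOS in the classical AP-1 pair, spanned the widest range. It had 961.63, 969.14, 889.52 and 934.02 CPM in RKO non-LRCs, and 0.14352, 0.8279, 0.30406 and 0.14742 CPM in HT55 non-LRCs, where 2 to 11 reads were counted per sample. HT55-LRCs were as low, at 1 to 12 reads, and JUN was too low there to be tested. JUNB (chr19:12902300-12904129) and JUND (chr19:18390504-18392432), the other JUN family genes, were present in HT55 at 306 ± 49.1 and 346 ± 36.8 CPM, and JUND was higher there than in every other line. IER3 (chr6:30710976-30712325) reached 1313 ± 199 CPM in SW48 and 429 ± 89.6 CPM in HT55 and stayed between 50.5 and 124 CPM in the other lines, whose neighbors overlapped. ATF3 (chr1:212738676-212794119) was among the least expressed members, from 3.55 ± 0.951 CPM in DLD1 to 40.6 ± 20.7 CPM in HT55.

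Levels of different genes were compared per kilobase of exon. On that scale the median over the 12 groups of sorted samples was 172 CPM per kb for EGR1, 131 for JUNB and 80.8 for IER3 at the upper end, and 8.70 for FOSB and 3.70 for ATF3 at the lower end. The ratio of the highest to the lowest group mean was 4.91 for JUND, the steadiest member, and 2638 for JUN.

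**Figure D1:**
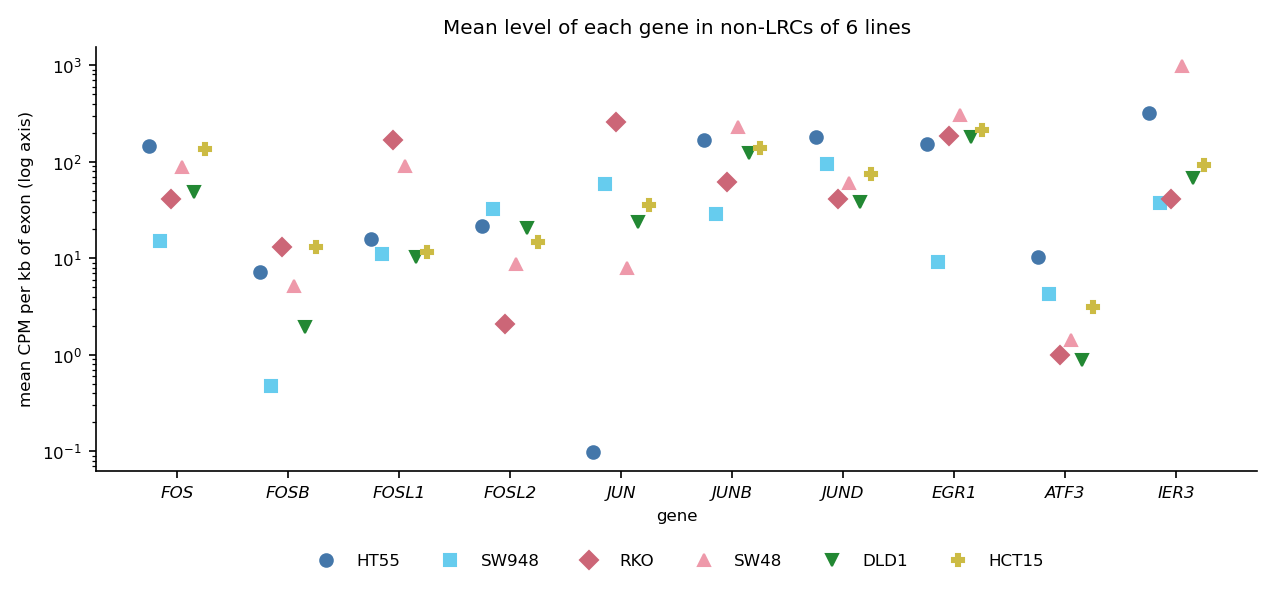
Mean level of each member in non-LRCs of the 6 lines, in CPM per kilobase of exon on a log axis, with 1 symbol per line (mean of 4 replicates). JUN in HT55, at 0.0982, lies far below every other value, and RKO and SW48 are the highest lines for FOSL1 and the lowest for FOSL2.

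Across the 6 lines, ATF3 and FOSL2 were higher in LRCs and the other 8 genes did not pass the test. This comparison asks whether dormant cells differ from cycling cells of the same spheroids, and 22.9% of the 16603 genes tested passed it, 12.2% with a higher level in LRCs. The members' count of 2 in 10 is close to that background. With the replicate number as a block, FOSB (0.50, adjusted p = 0.0121) and JUNB (0.15, adjusted p = 0.0461) passed as well, where 25.5% of genes did. That block covered all 6 lines, also SW948 and RKO, where replicate numbers were not taken to pair samples. ATF3 rose by 1.19 on the log2 scale (SE 0.15, a fold change of 2.28, edgeR quasi-likelihood test with Benjamini-Hochberg adjusted p = 2.89e-07), and in 22 of 24 pairs of equal line and replicate number it was higher in LRCs. FOSL2 rose by 0.29 (SE 0.0531, 1.22-fold, adjusted p = 8.02e-05), also in 22 of 24 pairs. Both passed with any replicate number left out, and also without replicate 4 of the SW948-LRCs, where 24.4% of genes did.

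FOSB came next, at 0.59 (SE 0.26, adjusted p = 0.0907), followed by JUNB at 0.15 (adjusted p = 0.152) and FOS at 0.18 (adjusted p = 0.593). The remaining differences were 0.04 for FOSL1, 0.04 for JUN, -0.02 for JUND, -0.01 for EGR1 and -0.00 for IER3. With standard errors of 0.0529 (JUND) to 0.14 (FOSL1), these averages hide opposite differences in single lines, as the values below show.

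**Figure D2:**
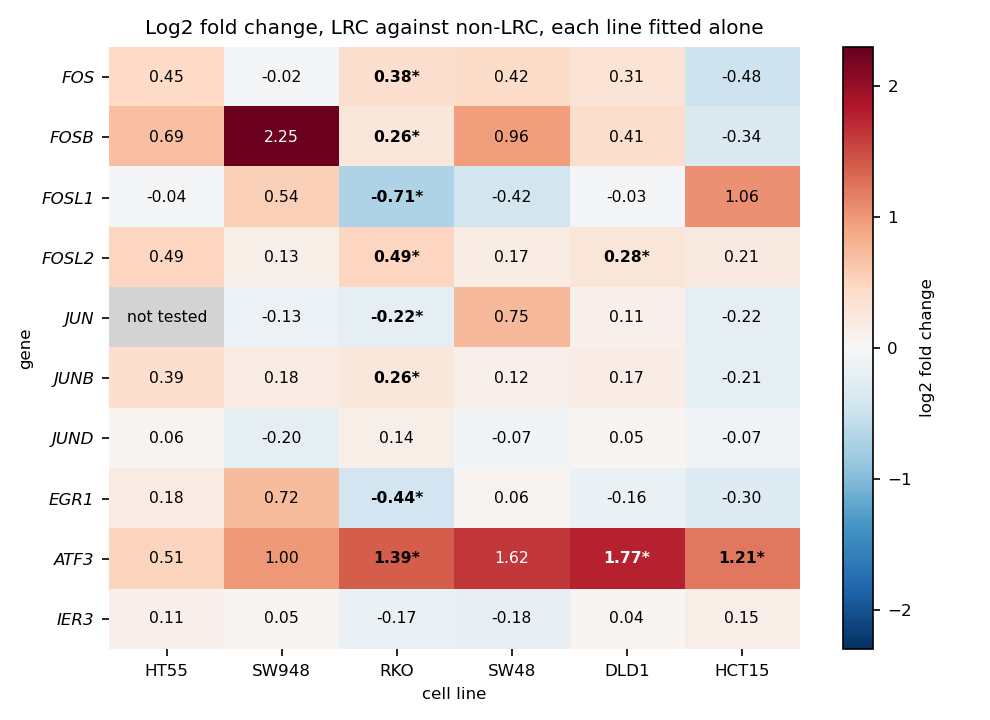
Log2 fold change of LRCs against non-LRCs for each member (rows) and line (columns), from edgeR fits of each line alone, with an asterisk where the adjusted p was under 0.05. ATF3 and FOSL2 are positive in all 6 lines, FOSL1 runs from -0.71 in RKO to 1.06 in HCT15, and JUN was not tested in HT55.

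ATF3 represses or activates its targets depending on its partner and is induced by many kinds of stress. In DLD1 it measured 13.623, 15.115, 9.9609 and 9.1315 CPM in LRCs against 4.5482, 3.4847, 2.2869 and 3.8884 CPM in non-LRCs, without overlap. In HCT15 the LRCs had 32.26, 35.271, 27.808 and 19.113 CPM and the non-LRCs 11.626, 12.138, 14.297 and 11.532 CPM, again without overlap. In RKO the values were 14.61, 12.322, 4.1257 and 10.82 CPM in LRCs against 4.7741, 4.2853, 3.1541 and 3.5581 CPM, so that replicate 3 alone of the LRCs fell within the range of the non-LRCs. These are the 3 lines in which ATF3 passed the test, with log2 differences of 1.77 (SE 0.22, adjusted p = 0.00127) in DLD1, 1.39 (SE 0.27, adjusted p = 0.000866) in RKO and 1.21 (SE 0.17, adjusted p = 0.0201) in HCT15. The HCT15 call was lost without replicate 1, 2 or 3 (adjusted p = 0.255, 0.124 and 0.205).

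In SW48 the LRCs ranged from 6.2521 to 29.317 CPM of ATF3 and the non-LRCs from 4.1197 to 7.8124 CPM. The difference was 1.62 (SE 0.41, adjusted p = 0.115), and it was larger in replicates 1 and 2 (mean 2.35) than in 3 and 4 (mean 0.50). In SW948 the LRCs had 41.579, 33.357, 45.743 and 16.334 CPM against 15.369 to 19.167 CPM in non-LRCs. The low value is that of replicate 4, the library that resembled non-LRCs as a whole. In HT55 both populations spread widely, from 32.491 to 87.603 CPM in LRCs and from 16.267 to 65.453 CPM in non-LRCs, and the difference of 0.51 had an SE of 0.37.

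**Figure D3:**
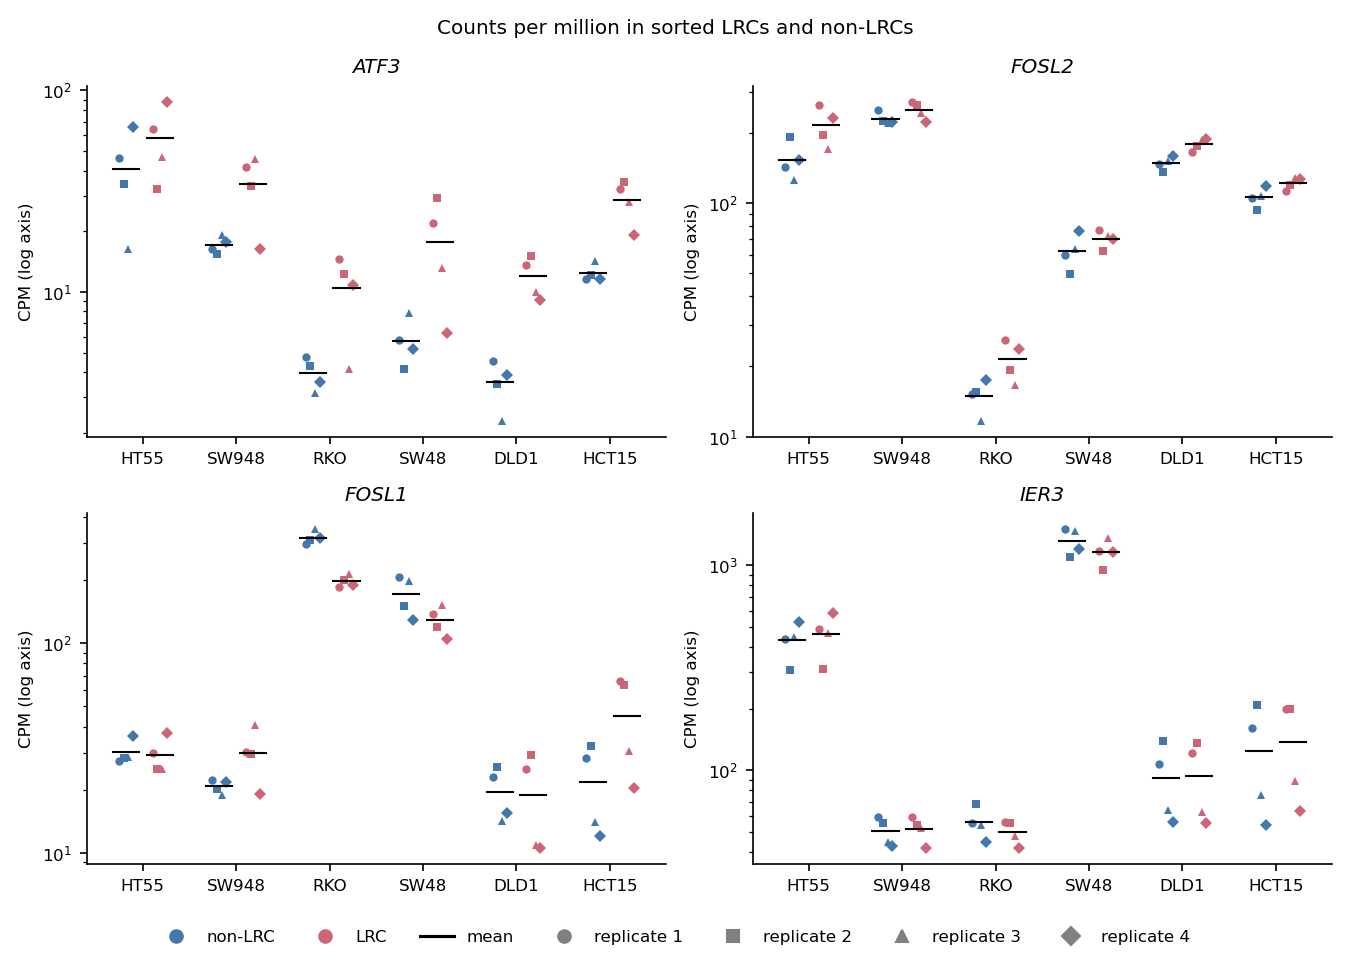
CPM on a log axis of ATF3, FOSL2, FOSL1 and IER3 in every sorted sample of the 6 lines, with non-LRCs in blue, LRCs in red, symbols for the replicate number and a bar at the mean of 4. ATF3 lies higher in LRCs in every line on average, FOSL1 lies lower in LRCs of RKO and higher in those of HCT15, and IER3 differs between lines far more than between populations.

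FOSL2 was higher in LRCs by a small amount in the fit of each line, from 0.13 to 0.49. In DLD1 the LRCs had 165.19, 175.63, 186.88 and 189.14 CPM and the non-LRCs 146.53, 136.62, 151.52 and 159.89 CPM, which did not overlap (0.28, SE 0.0631, adjusted p = 0.0152). In RKO, where the gene is low, LRCs had 25.828, 19.33, 16.668 and 23.804 CPM and non-LRCs 15.156, 15.518, 11.67 and 17.416 CPM, higher in 4 of 4 pairs (0.49, SE 0.14, adjusted p = 0.00963). The differences in the other 4 lines were 0.49 in HT55, 0.21 in HCT15, 0.17 in SW48 and 0.13 in SW948, with adjusted p-values of 0.572, 0.237, 0.586 and 0.397. The DLD1 call was lost without replicate 1 or 3 (adjusted p = 0.0502 and 0.0919).

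RKO was the line with the most calls among the members, 8 of 10, in a line where 41.5% of the 12731 genes tested passed. FOS was at 183.84, 180.74, 146.05 and 186.81 CPM in LRCs and at 117.15 to 145.18 CPM in non-LRCs, a rise of 0.38 (SE 0.0903, adjusted p = 0.00341), with replicate 3 of the LRCs just above the non-LRC range. FOSB (0.26, adjusted p = 0.0386) and JUNB (0.26, adjusted p = 0.0443) also rose. FOSL1, at 185.67, 201.24, 214.04 and 188.76 CPM in LRCs against 297.36, 309.06, 348.76 and 317.23 CPM in non-LRCs, fell by 0.71 (SE 0.0753, adjusted p = 4.2e-06). EGR1, at 405.17 to 457.84 CPM in LRCs against 521.6 to 648.64 CPM in non-LRCs, fell by 0.44 (adjusted p = 0.000384), and JUN fell by 0.22 (adjusted p = 0.0279). FOS and EGR1, both textbook immediate early genes, moved in opposite directions in this fit of RKO alone. In 1 fit of all 48 sorted samples, FOSL1, FOSL2 and ATF3 were the 3 members that passed in RKO, where 26.4% of genes did, and FOS and EGR1 did not. FOS, FOSL1, EGR1 and ATF3 passed with every replicate number left out, whereas FOSB, FOSL2, JUN and JUNB each failed in at least 1 such fit, down to 4 calls without replicate 1. RKO-LRCs also had higher summed epithelial markers (279 to 333 against 219 to 254 CPM) and more CD68 (at least 1249 against at most 1142 CPM), and the part of these in the members' differences was not tested.

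FOSL1 also fell in LRCs of SW48 when samples with the same replicate number were compared, and rose in those of HCT15. In SW48, where 0.796% of the 13196 genes tested passed and none of the 10 members did (2 at an unadjusted p under 0.05, and 1, ATF3, by DESeq2, which called 2.74% of genes), FOSL1 was at 138.25, 119.57, 151.85 and 104.32 CPM in LRCs and at 207.08, 150.81, 197.46 and 128.83 CPM in non-LRCs. It was lower in LRCs in 4 of 4 pairs although the ranges overlapped. With the replicate number as a block, since it pairs the samples of this line, 9.69% of genes and 4 members passed, FOSL1 at -0.40 (adjusted p = 0.00493), FOSB at 0.83 (adjusted p = 0.0107), JUN at 0.63 (adjusted p = 0.0397) and ATF3 at 1.51 (adjusted p = 0.0167).

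In HCT15, where 0.977% of the 14017 genes tested passed and ATF3 was the single member among them, FOSL1 had 65.777, 63.258, 30.661 and 20.279 CPM in LRCs against 28.168, 32.369, 14.06 and 12.01 CPM in non-LRCs. Each LRC sample lay above the non-LRC sample of its own number, but replicates 1 and 2 of both populations lay above 3 and 4. Without the block the difference of 1.06 had an adjusted p of 0.223. With the replicate number as a block it was 1.04 (adjusted p = 4.71e-07), 21.3% of all genes passed, and 7 members did. Deviations of LRCs and non-LRCs from their group means correlated at a mean r of 0.351 for the same number. Between replicates 1 and 2, and between 3 and 4, the mean was 0.327, so pairing by number was not clear. FOSL2 (0.22, adjusted p = 0.0207) and ATF3 (1.20) were higher with the block as well. FOS (-0.47, adjusted p = 0.000164), FOSB (-0.35), JUN (-0.20) and EGR1 (-0.30) were lower. HCT15-LRCs had 9.26 to 28.3 CPM of summed leukocyte markers, of which CD3E was at 0 and PTPRC at no more than 0.0674 CPM, against 3.32 to 9.2 CPM in non-LRCs, and the part of this in the members' differences was not tested.

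In DLD1, 14.6% of the 13592 genes tested passed, ATF3 and FOSL2 among them. With the replicate number as a block, 33.8% of genes and 6 members passed. Pairing by number was less clear here. Deviations of LRCs and non-LRCs from their group means correlated at a mean r of 0.223 for the same number. Between replicates 1 and 2, and between 3 and 4, the mean was 0.189. FOS was at 283.94, 195.5, 167.78 and 111.48 CPM in LRCs and at 231.89, 139.91, 142.11 and 103.74 CPM in non-LRCs, higher in 4 of 4 pairs but overlapping as groups (0.30 with the block, adjusted p = 3.87e-05). FOSB (0.43) and JUNB (0.16) were also higher and EGR1 (-0.17) lower with the block. With a term for replicates 1 and 2 against 3 and 4 in place of the block, 4285 genes passed, but only FOSL2 and ATF3 of the members. FOS was thus higher in LRCs of RKO fitted alone. In DLD1 it was higher with the block, a call lost with that term. In HCT15 it was lower and passed with either.

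SW948 and HT55 gave no call. In SW948, 0% of the 13674 genes tested passed by edgeR, with 2350 genes and 4 members at an unadjusted p under 0.05, and DESeq2 called 244 genes (1.78%) and none of the members. FOSB had 15.482, 16.027, 16.768 and 1.123 CPM in LRCs against 3.6776, 4.2188, 1.2221 and 1.3367 CPM in non-LRCs. Replicate 4 of the LRCs was the lowest of all 8. Without that library 14.5% of genes (9.32% higher in LRCs) and 4 members passed, all higher, FOSB at 2.66 (adjusted p = 4.21e-05), FOSL1 at 0.71 (0.00184), EGR1 at 1.0 (0.015) and ATF3 at 1.24 (1.95e-05). It was left out for its likeness to non-LRCs, which by itself tends to widen the difference. With replicate 1, 2 or 3 left out and replicate 4 kept, no member passed. FOSB, FOSL1, EGR1 and ATF3 also passed with all 8 libraries kept when the replicate number was a block (3.66% of genes) or when no filter on low counts was applied (3.60%). Replicate numbers were not taken to pair samples in SW948, where the same number correlated at only 0.011 to 0.118. With a term for replicates 1 and 2 against 3 and 4 instead, 1 gene passed and none of the members did (5 at an unadjusted p under 0.05). In HT55, 0% of the 13391 genes tested passed by edgeR, with 1005 genes and 2 of the 9 tested members at an unadjusted p under 0.05, and DESeq2 called 37 genes (0.276%) and none of the members. With the replicate number as a block, since it pairs the samples of HT55, again no gene passed by edgeR. Unadjusted p-values under 0.05 then numbered 2055, 5 of them from members. The largest HT55 differences without the block were 0.69 for FOSB, 0.51 for ATF3 and 0.49 for FOSL2. Without replicate 2, whose non-LRC library resembled LRCs, FOS and FOSL2 passed, where 6.13% of genes did. Leaving out such a library tends by itself to widen the difference.

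The difference between LRCs and non-LRCs itself differed between lines for FOSL1 in the fit without a block, in a test of the interaction of line and population that 14.3% of all genes passed (adjusted p = 0.0115 for FOSL1). The call was lost without replicate 1 (adjusted p = 0.197) or 3 (adjusted p = 0.106). Without replicate 4 of the SW948-LRCs it was 0.00559, and EGR1 passed too (0.0494), where 18.1% of genes did. Replicate numbers were taken to pair the samples in 4 of the 6 lines. The block on them covered all 6 lines, however, also SW948 and RKO, where they were not taken to pair samples. With it 33.6% of genes and 8 members passed, FOSL1 (adjusted p = 7.4e-09), FOSB (3.4e-05), EGR1 (0.000111), FOS (0.000188), JUN (0.00375), IER3 (0.0226), JUND (0.0374) and JUNB (0.0377). For ATF3, whose single line differences ran from 0.51 to 1.77, the interaction had an adjusted p of 0.341, or 0.0792 with the block.

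The other genes of the pathway came from fixed lists, chosen with earlier results of these data known. In the comparison across the 6 lines, 22.9% of all genes tested passed and 12.2% were higher in LRCs. Of 9 other leucine zipper partners of AP-1, 3 were higher in LRCs across the 6 lines and none lower, led by MAFF, a small MAF protein (0.48, adjusted p = 0.000625), with MAFG at 0.16 and ATF7 at 0.11. Of 19 other immediate early genes, 9 were higher and none lower, with a median of 0.35 over the list against 0.01 over all genes. They included NR4A3, an orphan nuclear receptor (0.99, SE 0.16, adjusted p = 1.42e-05), CSRNP1 (0.50), IER5 (0.45) and KLF4, a zinc finger factor of differentiated epithelium (0.38). Of 11 upstream kinases and factors, among them the MAP kinases and serum response factor, none passed. Of 11 tested genes linked to AP-1 as targets, 5 were higher and none lower. These were the secreted proteases MMP10 (2.55, SE 0.30, adjusted p = 8.15e-08) and MMP1 (2.18, adjusted p = 2.89e-07), the chemokine CXCL8 (1.32), the EGF family ligand HBEGF (0.42) and CD44. Of 7 heat shock genes, which cell dissociation can induce, DNAJB1 (0.15) and HSPH1 (0.12) were higher and HSPE1 (-0.19) lower, and their part in the members' differences was not tested.

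Some members varied together between samples of the same line and population. Deviations of log2 CPM from the mean of each line and population, over the 48 sorted samples, were correlated across samples. FOS went with FOSB (Pearson's r = 0.877), EGR1 (0.765) and JUNB (0.598), and the 5 most alike of all genes tested were DUSP1, a MAP kinase phosphatase (0.920), FOSB, IER2 (0.808), EGR1 and the receptor gene LPAR5 (0.675). FOSL1 went with IER3 (0.889), and its 5 most alike genes were TNFRSF12A, the TWEAK receptor (0.899), IER3, the phosphatase DUSP6 (0.857), the EGF receptor inhibitor ERRFI1 (0.855) and EPHA2 (0.853). FOS and FOSL1 had an r of 0.051. These correlations are descriptions over samples that share lines, replicate numbers and library preparation.

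**Figure D4:**
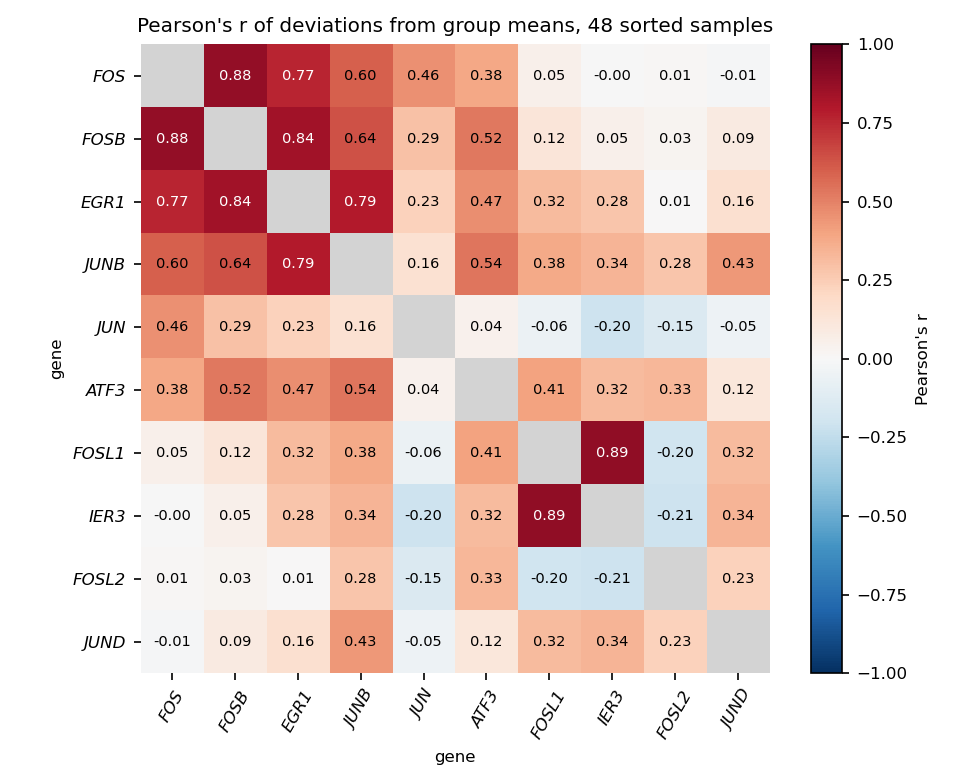
Pearson's r between members of their deviations from the mean of each line and population, over 48 sorted samples, on a color scale from -1 to 1. FOS, FOSB, EGR1 and JUNB form a block of 0.60 to 0.88, and FOSL1 and IER3 pair at 0.89.

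Much of this variation followed the replicate numbers, which the labels do not tie to a batch or day. In SW48, FOS averaged 647 CPM in LRCs against 460 CPM in non-LRCs of replicates 1 and 2, against 111 and 105 CPM in replicates 3 and 4. In SW948 it averaged 71.7 and 77.9 CPM against 22.4 and 17.9 CPM. HCT15 ran the other way, with 193 and 265 CPM in replicates 1 and 2 and 421 and 600 CPM in 3 and 4. In SW48, SW948 and HCT15 the step was thus shared by both populations of a line, without a common direction. RKO showed no such step in FOS, at 182 and 131 CPM in replicates 1 and 2 and 166 and 132 CPM in 3 and 4. The values of FOS in replicates 1 and 2 and in 3 and 4 also overlapped in HT55-LRCs and in DLD1 non-LRCs. FOSL1 and IER3 showed a step in HCT15 with the opposite sign to FOS, at 64.5 and 30.3 CPM of FOSL1 in replicates 1 and 2 and 25.5 and 13 CPM in 3 and 4. These averages were set out after the values had been seen and were not tested.

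In the dyed DLD1 controls, most of the members fell between day 1 and day 5. The controls were meant to show what the dye and the time in culture do by themselves. In the CFSE controls 8 of the 10 members were lower on day 5, where 39.3% of the 14518 genes tested passed and 19.1% were lower. FOS had 616, 574.53, 31.494 and 34.271 CPM on day 1 and 32.53, 25.614, 20.797 and 19.488 CPM on day 5. Replicates 1 and 2 of day 1 averaged 595 CPM and replicates 3 and 4 averaged 32.9 CPM, which overlapped the highest value of day 5. FOS fell by 3.73 on the log2 scale (SE 0.78, adjusted p = 0.00192), with a mean log2 difference of -4.36 in replicates 1 and 2 and -0.70 in 3 and 4.

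FOSB showed the same division, at 302.15, 271.19, 12.922 and 11.099 CPM on day 1 against 2.8739 to 8.2764 CPM on day 5, without overlap, and fell by 5.0 (SE 0.98, adjusted p = 0.00123). JUN had 669.38, 523.43, 76.43 and 79.495 CPM on day 1 and 32.783 to 37.352 CPM on day 5, and fell by 3.33 (SE 0.56, adjusted p = 0.000479). ATF3 had 192.72, 184.1, 13.961 and 18.061 CPM on day 1 and 12.667, 17.096, 6.4794 and 6.9771 CPM on day 5, and fell by 3.30 (adjusted p = 0.00446). For FOSB and JUN every day 1 sample lay above every day 5 sample, and ATF3 overlapped because replicates 3 and 4 of day 1 were low. EGR1 fell by 1.99 (adjusted p = 0.00943), FOSL1 by 1.92 (0.00557), IER3 by 1.16 (0.0222) and JUNB by 0.77 (0.0434). FOSL2 (0.07) and JUND (0.02) did not pass.

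FOS, FOSB, FOSL1, JUN and ATF3 passed with any replicate number left out, while EGR1 and JUNB were lost without replicate 1 or 2, and IER3 without 1, 2 or 3. Of the other immediate early genes, 13 of 19 fell and none rose, where 19.1% of all genes tested were lower. The list median was -1.48 against 0.02 over all genes. GADD45B, a stress sensor, averaged 239 CPM on day 1 and 20.4 CPM on day 5 (-3.61, adjusted p = 0.00117), and KLF6, PPP1R15A and ZFP36 fell by 1.97, 2.23 and 1.12. Among the leucine zipper partners MAFF, MAFG and MAFK fell by 1.62, 0.71 and 1.15, and BATF2, JDP2 and ATF2 rose. Among AP-1-linked targets MMP10, HBEGF and PLAUR, the urokinase receptor, were among 5 of 11 that fell, HBEGF from 61.2 to 7.64 CPM, while CD44, TIMP1 and VIM rose. Of the heat shock genes HSPA1B (-0.98), HSPA1A (-1.0) and HSPH1 (-0.53) fell. Summed leukocyte markers, nearly all CD68 with CD3E at 0 and PTPRC at no more than 0.0657 CPM in DLD1, were 10.7 to 24.4 CPM on day 1. On day 5 they were 4.13 to 8.42 CPM. Summed epithelial markers went from 4862 to 6357 CPM on day 1 to 6562 to 8609 CPM on day 5. Reads outside genes made up 12.15% to 14.77% of the CFSE libraries of day 1 and 5.2% to 7.308% of those of day 5, without overlap. The part of these in the members' change was not tested.

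Without dye, 4 members fell and 1 rose. In these DMSO controls the 5 of 10 that passed stood against 25.5% of all genes. ATF3 had 41.756, 40.794, 10.58 and 4.6535 CPM on day 1 and 4.6724, 6.5853, 3.2811 and 4.1631 CPM on day 5, and fell by 2.39 (SE 0.81, adjusted p = 0.0409). EGR1 had 426.3, 385.33, 204.4 and 63.14 CPM on day 1 and 57.419 to 110.12 CPM on day 5, and fell by 1.76 (SE 0.55, adjusted p = 0.0297). In both genes replicate 4 of day 1, the library closer to day 5 as a whole, was the lowest of its group and lay within the range of day 5. FOSL1 fell by 1.38 (adjusted p = 0.0487) and IER3 by 1.18 (0.0335), while FOSL2 rose by 0.51 (0.0171). Without that library all 5 passed with larger differences, FOSB also passed (-2.60, adjusted p = 0.042), and 42.1% of genes passed. It had been singled out for its likeness to day 5, so leaving it out tends by itself to widen the differences. With replicate 1, 2 or 3 left out and replicate 4 kept, no gene of the 10 or of the whole table passed by edgeR (2917, 3483 and 3867 genes at an unadjusted p under 0.05). Of the other immediate early genes EGR4 fell (-2.78) and RHOB, a small GTPase, rose (0.81), and without the library 4 fell and 1 rose. Summed epithelial markers went from 6122 to 6866 CPM on day 1 to 7206 to 8228 CPM on day 5, reads outside genes from 8.962% to 13.57% down to 5.188% to 8.35%, and of 7 heat shock genes HSPH1 fell (-0.50, adjusted p = 0.0318). The part of these in the change of the members without dye was not tested. The kinases MAPK3 and MAPK14 rose over time in both series, by 0.75 and 0.37 without dye and by 0.70 and 0.52 with it.

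**Figure D5:**
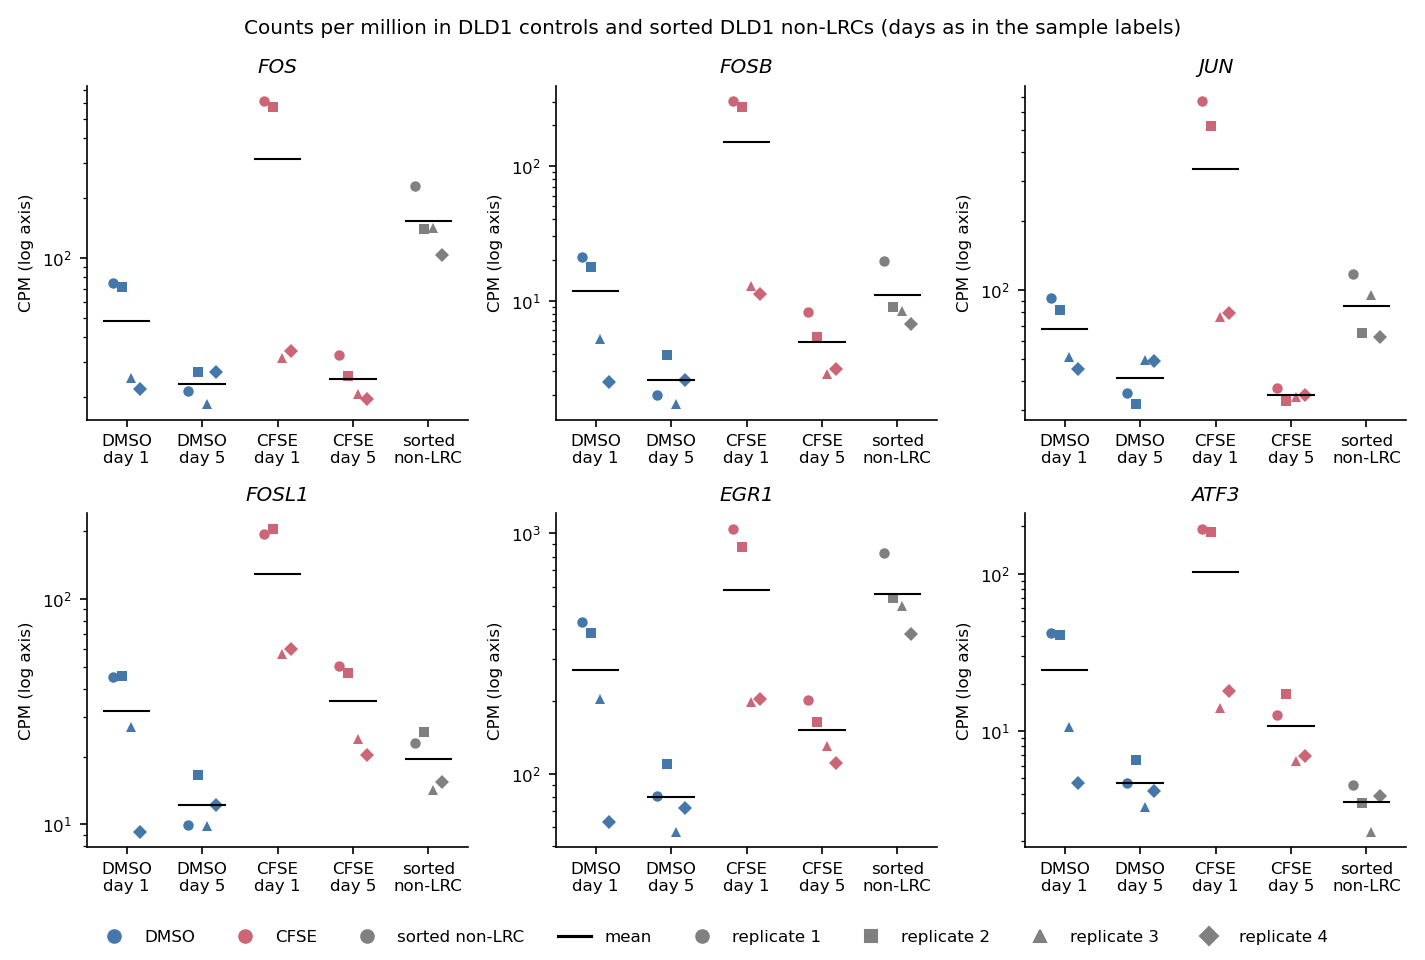
CPM on a log axis of 6 members in the DMSO and CFSE controls of DLD1 on day 1 and day 5 and in sorted DLD1 non-LRCs, with symbols for the replicate number and a bar at the mean of 4. CFSE day 1 replicates 1 and 2 stand above replicates 3 and 4 in all 6 genes, and FOS, JUN and EGR1 are higher in sorted non-LRCs than in the CFSE controls of day 5.

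With the dye, 5 of 10 members were higher on day 1, and on day 5 none was higher and 1 was lower. On day 1 21.8% of genes passed and 9.73% were higher. FOS, at 74.765, 71.312, 24.842 and 22.051 CPM with DMSO, was higher by 2.75 with CFSE (SE 0.75, adjusted p = 0.0165), but by a mean of 3.02 in replicates 1 and 2 and of 0.49 in 3 and 4. FOSB (21.224, 17.875, 5.1437 and 2.4854 CPM with DMSO) was higher by 3.72 (adjusted p = 0.00967) and JUN (92.31, 81.651, 51.086 and 45.425 CPM) by 2.36 (adjusted p = 0.00708). FOSL1, at 44.902, 45.528, 27.18 and 9.2541 CPM with DMSO and 193.94, 205.69, 57.274 and 59.78 CPM with CFSE, did not overlap and was higher by 2.06 (SE 0.49, adjusted p = 0.00847). IER3 was higher by 1.17 (adjusted p = 0.0346). ATF3, at 2.11, missed the threshold (adjusted p = 0.0535). Of the other immediate early genes 11 of 19 were higher and none lower with the dye, as were 7 of 11 AP-1-linked targets, 3 of 8 tested zipper partners (MAFF, MAFG and MAFK) and 3 of 7 heat shock genes (HSPH1, HSPA1B and DNAJB1). Summed leukocyte markers were 10.7 to 24.4 CPM with CFSE and 1.96 to 5.36 CPM with DMSO. In DLD1 CD3E was at 0 and PTPRC at no more than 0.0657 CPM, so this sum was nearly all CD68. The part of these markers and of the heat shock genes was not tested. All 5 were lost without replicate 1 or 2, and without replicate 4 of the DMSO day 1 controls FOS, FOSB, FOSL1 and JUN passed, IER3 did not, and 18% of genes did.

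On day 5, JUND was the single member that passed, at 72.491 to 102.73 CPM with CFSE and 110.76 to 138.66 CPM with DMSO (-0.49, SE 0.11, adjusted p = 0.024), where 5.13% of genes passed. The call was lost without replicate 1, 2 or 3 (adjusted p = 0.32, 0.169 and 0.124), and DESeq2 called FOSL1 besides JUND, with 10.5% of genes. FOSL1 had 50.306, 46.939, 23.88 and 20.27 CPM with CFSE and 9.9633, 16.626, 9.8432 and 12.237 CPM with DMSO on day 5, which did not overlap (1.52, adjusted p = 0.0759). Without replicate 4 of the DMSO day 1 controls, which share the fit's estimate of spread, 13.3% of genes passed and FOSL1 (1.54), IER3 (1.21), FOSL2 (-0.36) and JUND did. Whether the change over time itself differed with the dye was tested too, and no member passed, where 0.999% of genes did (5 members at an unadjusted p under 0.05, and 1, JUN, by DESeq2, which called 4.29% of genes). JUN came closest, at -2.62 (SE 0.74, adjusted p = 0.0904). Without that library FOSL2 passed (-0.56, adjusted p = 0.024) and 6.09% of genes did. These control comparisons share samples, so their values are not independent of each other.

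Sorted DLD1 non-LRCs were compared with the unsorted CFSE controls of day 5, the nearest group of the same line. Of the members 8 of 10 passed, where 64.6% of the 13689 genes tested did. FOS was at 154 ± 54.6 CPM in non-LRCs and 24.6 ± 5.90 CPM in the controls (2.67, adjusted p = 1.95e-06), EGR1 at 560 ± 188 and 152 ± 39.9 CPM (1.90), JUNB at 226 ± 36.0 and 78.7 ± 12.5 CPM (1.54) and JUN at 85.1 ± 26.3 and 34.8 ± 1.93 CPM (1.31), none of them overlapping. FOSL2 (0.97) and FOSB (1.19) were higher too. ATF3 was lower in the sorted cells, at 3.55 ± 0.951 against 10.8 ± 5.05 CPM (-1.58, adjusted p = 0.00111), as was FOSL1 (-0.83, adjusted p = 0.0249). JUND (-0.21) and IER3 (-0.40) did not pass. Of 7 heat shock genes 6 were lower in the sorted cells and none higher, and of 19 other immediate early genes 9 were higher and 7 lower. Reads outside genes were 7.342% to 8.507% in the sorted libraries and 5.2% to 7.308% in the controls. Sorting, the selection of cycling cells, the day and the set of libraries cannot be told apart in this comparison.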

How the data were processed

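For each of the 64 samples, the deposited values are counts, whole numbers of reads without normalization, for 54127 Ensembl identifiers, which the authors made from single-end reads of 50 bp and the hg19 genome. The submitters' processing notes name TopHat, HTSeq and DESeq, without versions. Reads outside genes, 5.19% to 14.8%, were left out. Whether counting used strand is not given in the sources used here, so reads of a member and of an overlapping antisense gene cannot be told apart.

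Groups and replicate numbers were taken from the labels. Symbols and positions came from GENCODE release 44 on GRCh37. A gene entered a fit when 4 or more of its samples reached 10 counts, and was tested with edgeR 4.0.16 in R 4.3.3 (TMM, quasi-likelihood test, two-sided, Benjamini-Hochberg over all genes, threshold 0.05). The 48 sorted samples were fitted with line as a covariate, each line alone with 8 samples, and the 16 controls in 1 fit of 4 group means. Log2 CPM used a prior count of 2. Differences of replicate means were taken on that scale. Replicate numbers were taken to pair samples where every same-numbered pair's deviations from the group means correlated above 0.1. This held in HT55 (lowest 0.141), SW48 (0.128), DLD1 (0.154), HCT15 (0.240) and between days of the CFSE controls (0.124). In DLD1, HCT15 and the CFSE controls the mean was 0.223, 0.351 and 0.184 for the same number. For the neighboring number (1 with 2, 3 with 4) it was 0.189, 0.327 and 0.181. Pairs by number were thus not told apart from that grouping there. In HT55 and SW48 the neighboring number gave -0.067 and -0.143. Alternatives were DESeq2 1.42.0, no filter, no TMM, a block for the replicate number, leaving out each number in turn, 1 fit for all lines and a prior count of 0.5. A term for replicates 1 and 2 against 3 and 4, and fits without a library were added after seeing the data. On simulated counts, drawn independently for each gene and sample, genes changed by 1 on the log2 scale were recovered. The share was 99.5% of 200 cases across lines, 94% in SW948 and 76.5% in the CFSE controls. Of the genes called there, 6.57%, 8.29% and 7.27% had not been changed. Genes of low counts were not among those changed, and differences that many genes share between replicate numbers were not simulated. Nothing in the labels or methods says how independent the replicates' cultures were beyond the term biological replicates, so p-values measure the spread between these samples. Members and lists were chosen with earlier results of these data known. All members were described, and from each other list up to 4 called genes with the smallest adjusted p, across lines and in the controls over time. Further list genes (such as CD44 across lines, JDP2, ATF2, TIMP1 and VIM with CFSE, and those in the dye comparison) were named after their values were seen.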

Additional observations from a re-analysis of the deposited data

Results flagged for a closer look

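In 8 of 160 sets of 4 replicates of a member, 1 sample lay far from the other 3, which is the number (8) that chance alone would give. The 2 libraries furthest from their labels were among them. Replicate 4 of the SW948-LRCs had 1.12 CPM of FOSB, the others 15.5 to 16.8 CPM. Replicate 4 of the DMSO day 1 controls had 92.3 CPM of FOSL2 against 60.2 to 62.8 CPM, and 38.7 CPM of IER3 against 139 to 152 CPM. The rest were 146 CPM of FOS in replicate 3 of the RKO-LRCs (others 181 to 187 CPM), 36.1 CPM of FOSL1 in replicate 4 of the HT55 non-LRCs (27.3 to 28.7 CPM), 251 CPM of FOSL2 in replicate 1 of the SW948 non-LRCs (221 to 225 CPM), 139 CPM of JUND in replicate 1 of the DMSO day 5 controls (111 to 115 CPM) and 96.9 CPM of JUND in replicate 1 of the RKO-LRCs (85.7 to 87.1 CPM).

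The difference between LRCs and non-LRCs differed between lines for FOSL1 (adjusted p = 0.0115, edgeR interaction test), from -0.71 in RKO and -0.42 in SW48 to 0.54 in SW948 and 1.06 in HCT15.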

How the results depend on the processing

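Of 1450 repeats of 149 tests of single members, 1291 kept their side of the threshold, 62 fell below it and 97 passed it. None changed sign where the main fit or the repeat passed. Changes of sign between fits that did not pass were not counted, and tests over several lines at once have no sign. Members called across the 6 lines numbered 2 in every fit except 4 with the replicate block, which added FOSB (0.50) and JUNB, and 3 with a term for replicates 1 and 2 against 3 and 4. DESeq2 gave 1 call in SW48, 2 in the dye on day 5 and 1 in the interaction of dye and day. No filter gave 4 in SW948, 1 in SW48, 2 in HCT15, 5 in the interaction of line and population, 8 and 3 in the dye on days 1 and 5, and 2 in that of dye and day. The block gave 4 in SW948 and in SW48, 6 in DLD1, 7 in HCT15, 8 in the line interaction, and 8 and 3 in the dye on days 1 and 5, and it changed no other count of members by over 1.5 times. Numbers were not taken to pair samples in SW948, RKO and controls other than CFSE over time. At most 3 of 4 samples correlated best with their own number there, but also in HT55, DLD1, HCT15 and CFSE over time. That count did not separate paired from unpaired groups. The term for replicates 1 and 2 against 3 and 4 gave 6 in HCT15, 8 in the dye on day 1 and 3 on day 5. One fit of 48 samples gave 1 in HT55, 3 in RKO, 1 in SW48, 1 in DLD1 and 2 in HCT15. Without replicate 4 of the SW948-LRCs there were 4 in SW948 and 2 in the line interaction. Without replicate 4 of the DMSO day 1 controls there were 4 in the dye on day 5, 1 in that of dye and day, and 5 other immediate early genes over time with DMSO, where DESeq2 called 1 AP-1-linked target. Over replicate numbers left out, calls ranged from 0 to 2 in HT55, 0 to 4 in SW948, 4 to 7 in RKO, 1 to 2 in DLD1, 0 to 1 in HCT15 and in the line interaction, 0 to 6 over time with DMSO, 5 to 8 with CFSE, 0 to 7 and 0 to 4 in the dye on days 1 and 5, and 0 to 2 in that of dye and day. The cause was not tested beyond the fewer samples of such fits.

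Counts of all genes called moved too, from 3803 across lines to 2243 without replicate 3, and with the block from 1978 to 4591 in DLD1, 137 to 2987 in HCT15, 105 to 1279 in SW48, 0 to 501 in SW948 and 2380 to 5584 in the line interaction. Without the DMSO day 1 library, counts went from 3695 to 6077 over time with DMSO, 745 to 1923 in the dye on day 5 and 145 to 880 in that of dye and day. A prior count of 0.5 moved no mean log2 difference by more than 0.034. JUN in HT55, at 1 to 12 reads per sample, was too low to pass the filter on counts in that line.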
